A study of Mus musculus with 6 samples.

Results

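The keratin genes were followed through 3 phagocyte fractions sorted from mouse sublingual mucosa, as a readout of epithelial RNA in the sorts. Every non-control probe whose gene name is Krt followed by a number and an optional letter was taken. This gave 68 probes for 52 genes, of 37005 genes on the array, and each gene was read from its brightest probe. Values are log2 of the processed signal minus the array's 75th percentile, so that 0 is the level of a fairly bright probe of that array. A probe was called detected where the scanner software marked it as well above background. Brightness depends on each probe's own binding, so levels are compared between arrays for the same probe and not between keratins.

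All mice were BALB/c, an inbred laboratory strain, and all had received 2 applications of FITC, a fluorescent hapten, to the mucosa; no unpainted group was analysed here. Tongue tissue was digested in collagenase and DNase for 30 min before sorting. Fr1 was the CD11c+CD206- gate, Fr2 the CD11c-F4/80+CD206- gate and Fr3 the F4/80+CD206hi gate. Each fraction had 2 arrays, which the series design describes as independent experiments. The age of the mice and the number pooled in a sort are not given in the sources used here.

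Keratins are the intermediate filament proteins of epithelial cells, built from an acidic type I chain paired with a basic type II chain. Stratified epithelium makes KRT5 and KRT14 in its basal layer, and the lining mucosa of the mouth makes KRT4 and KRT13 in the layers above. KRT8 and KRT18 are the pair of simple and glandular epithelium, KRT6, KRT16 and KRT17 mark tongue papillae and stressed epithelium, and another set belongs to the hair follicle. Macrophages and dendritic cells are not known as keratin producers, but Langerhans cells and other phagocytes of a mucosa lie among keratinocytes.

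The genes of the sorted cells were read first. Of 17 phagocyte genes, 16 were detected on all 6 arrays. Among them Itgam was read from a probe with a CA or GT repeat, of the kind described below for Krt222. That probe had a mean of 10.9 over the 6 arrays and another Itgam probe −0.65, so the bright value is not read here as a level of Itgam. Adgre1, which encodes F4/80, was at 4.83 and 4.70 on the Fr1 arrays, 6.27 and 6.29 on Fr2, and 5.78 and 5.66 on Fr3. Mrc1, which encodes CD206, was not detected on either Fr1 array, stood at 0.98 and 0.65 on Fr2, and at 4.10 and 3.01 on Fr3, so Fr2 held Mrc1 signal although it was gated as CD206-negative. Itgax, which encodes CD11c, was at 3.05 and 2.66 on Fr1, 3.10 and 1.53 on Fr2, and 0.52 and 1.29 on Fr3, so the Fr2 arrays, gated as CD11c-negative, spanned the Fr1 values. The Fr1 and Fr3 arrays were on one slide and scan and both Fr2 arrays on another, so a difference of Fr2 from the other fractions cannot be told apart from a difference between slides. In bulk samples of this kind, fewer cells of a type and less RNA per cell cannot be told apart either.

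Fewer keratins were detected on each array than the share of all genes. On the Fr1 arrays 19 and 19 of the 52 keratins were detected, on Fr2 24 and 28, and on Fr3 24 and 22. As shares these were 36.5% and 36.5%, 46.2% and 53.8%, and 46.2% and 42.3%. Of all genes on the array, 51.4% and 49.5% were detected on Fr1, 55.6% and 57.3% on Fr2, and 56.5% and 50.4% on Fr3. The share of keratins was thus below the share of all genes on all 6 arrays, and both Fr2 arrays lay at or above the Fr1 and Fr3 arrays. Across the family, 15 keratins were detected on all 6 arrays, which is 28.8% against 36.7% of all genes, 17 on 1 to 5 arrays, and 20 on none, which is 38.5% against 30.1%. Both arrays of a fraction detected 16 keratins in Fr1, 23 in Fr2 and 18 in Fr3, which is 30.8%, 44.2% and 34.6%, against 44.3%, 50.2% and 45.5% of all genes.

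**Figure D1:**
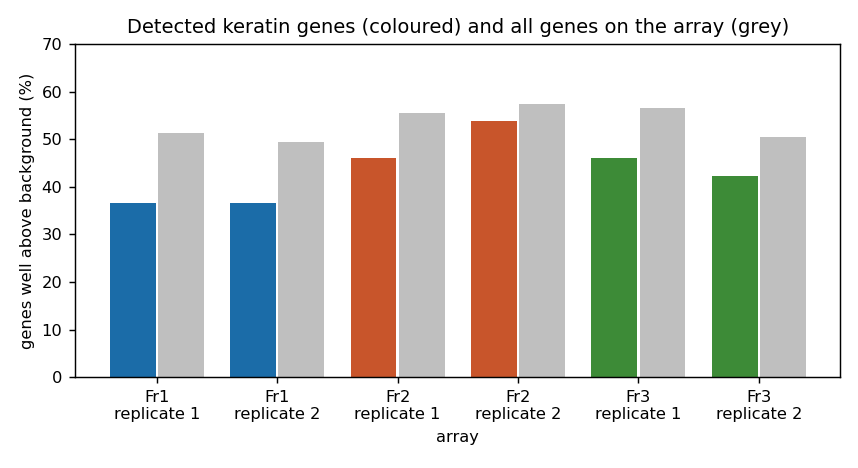
Percent of genes well above background on each of the 6 arrays, in the 52 keratins (coloured) and in all genes on the array (grey). The keratin bars run from 36.5% on both Fr1 arrays to 53.8% on Fr2 replicate 2, and each stands below the grey bar of its array.

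The bar for detection was not equally high on every array. The lowest level called well above background was −2.07 and −1.80 on the Fr1 arrays, −2.60 and −2.64 on Fr2, and −2.57 and −1.95 on Fr3, so a dim keratin could count as detected on Fr2 at a level that would not count on Fr1. Krt13 was an example: it was not detected on Fr1 replicate 1 at −1.97 and was detected on Fr2 replicate 2 at −2.12. With a looser call, a signal that is positive and significant against the local background, both arrays detected 33 keratins in Fr1, 41 in Fr2 and 40 in Fr3.

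A keratin entered the comparisons where both arrays of at least 1 fraction detected it, which kept 25 of 52, or 48.1%, against 56.3% of all genes on the array. Of these 25, Krt6a, Krt14, Krt20, Krt23, Krt75 and Krt86 were kept through Fr2 alone and Krt13 and Krt26 through Fr3 alone. None was kept through Fr1 alone, and 17 were kept through more than 1 fraction. A keratin kept through 1 fraction had to look high there, so for these 8 the direction of a difference is set in part by the filter.

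In the basal layer, Krt14 was detected on 3 arrays. It was not detected on the Fr1 arrays at −4.26 and −3.97, was detected on Fr2 at −0.93 and −1.75, and on Fr3 was detected on replicate 1 at −1.50 and not on replicate 2 at −3.38. Both Fr2 arrays lay above both Fr1 arrays, and of the Fr3 arrays one lay between the Fr2 values and the other between Fr2 and Fr1. The measured difference of Fr1 from Fr2 was −2.78 ± 0.76 (log2, SE, n = 2 and 2; limma adjusted p = 0.372), and Fr2 was at least 1.51-fold above the lowest detectable level of Fr1. Its type II partner Krt5 was detected on no array. Krt15, another basal keratin, was detected on replicate 2 of Fr2 at −0.41 and of Fr3 at −1.19 and on no other array, so it was not tested.

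Of the suprabasal keratins of oral mucosa, Krt76, Krt78 and Krt24 were detected on no array. Krt4 was detected on all 6, at −1.44 and 0.01 on Fr1, −1.55 and −1.91 on Fr2, and −1.12 and −0.68 on Fr3. Its Fr2 values were the lowest of the fractions, with a difference of Fr1 from Fr2 of 1.01 ± 0.67 (limma adjusted p = 0.651). Its type I partner Krt13 was not detected on Fr1 at −1.97 and −2.88, was detected on Fr2 on replicate 2 only at −2.12 (−2.74 on replicate 1), and on Fr3 at −1.78 and −0.82. Both Fr3 arrays of Krt13 lay above the other 4, and its difference of Fr2 from Fr3 was −1.13 ± 0.65 (limma adjusted p = 0.61). A dimmer Krt13 probe, detected on 2 arrays, did not share this order. It stood at −2.38 and −1.41 on Fr1, −3.45 and −3.19 on Fr2, and −2.96 and −1.06 on Fr3, where the fractions Fr1 and Fr3 overlapped. The pair of lining mucosa was thus not brightest in Fr2, unlike Krt14. The Krt4 probe covers 579 bases of genome (mm9, chr15:101750158-101750736, minus strand) and the brighter Krt13 probe 239 bases (mm9, chr11:99980710-99980948, minus strand), both more than the 60 bases of the probe, so both read across a splice junction. Krt80, made in differentiating epithelium, was detected on all 6 arrays, at 1.57 and 1.34 on Fr1, 0.45 and 0.95 on Fr2, and 0.82 and 0.94 on Fr3, and 2 of its 3 probes were detected throughout while the third was detected nowhere. The dimmer of these 2 stood at 0.07 and 0.81 on Fr1, 0.10 and 0.09 on Fr2, and −0.11 and 0.60 on Fr3. On that probe the fractions overlapped.

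The keratins of cornifying epidermis were mostly absent from detection. Krt1, Krt10 and Krt9 were detected on no array. Krt2 was detected on all 6, between −1.25 and 0.19, and Krt77 on 5, between −1.45 and −0.14, with −1.93 on Fr1 replicate 1, where it was not detected. The fractions overlapped for Krt2, and for Krt77 the Fr2 arrays, at −1.45 and −1.15, lay just below those of Fr3, at −1.10 and −0.33.

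Krt6a, induced in stressed epithelium and made in tongue papillae, was detected on the Fr2 arrays alone. It stood at −4.12 and −3.85 on Fr1, −0.29 and −1.25 on Fr2, and −4.61 and −3.95 on Fr3. Fr2 was at least 2.24-fold above the lowest detectable level of Fr1 and at least 2.81-fold above that of Fr3. The measured differences were −3.22 ± 0.61 for Fr1 minus Fr2 (limma adjusted p = 0.286) and 3.51 ± 0.61 for Fr2 minus Fr3 (limma adjusted p = 0.151), and neither passed the threshold of 0.05. Krt6b, its close paralog, was detected on no array. Krt16, a type I partner of KRT6, was detected on all arrays in all fractions, at 2.53 and 2.85 on Fr1, 2.43 and 2.46 on Fr2, and 1.91 and 2.99 on Fr3, and its differences of 0.25 ± 0.60 (Fr1 minus Fr2) and 0.24 ± 0.60 (Fr1 minus Fr3) were within their errors. Krt17, made in papillae and hair follicles, was also on all 6 arrays, at −1.09 and −0.08 on Fr1, −1.06 and −0.11 on Fr2, and −0.23 and 0.97 on Fr3. Replicate 2 of Krt17 was the higher in each fraction, by as much as the fractions differed. Krt79, of the follicle opening, was at 3.02 and 4.30 on Fr1, 3.52 and 4.59 on Fr2, and 3.82 and 4.45 on Fr3, and the fractions overlapped. Krt75, of the companion layer of the follicle, was detected on Fr1 replicate 2, both Fr2 arrays and Fr3 replicate 1, with 0.01 and −1.99 on Fr2, so the Fr2 arrays differed from each other by more than the fractions did.

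In simple and glandular epithelium, Krt18 was detected on all 6 arrays, at −0.22 and −0.18 on Fr1, 2.75 and 3.06 on Fr2, and 2.27 and 0.71 on Fr3. All 3 fractions stood apart from each other in its values, with Fr1 lowest and Fr2 highest. The difference of Fr1 from Fr2 was −3.10 ± 0.67 (unadjusted p = 0.00267, limma adjusted p = 0.32), that of Fr1 from Fr3 −1.69 ± 0.67 (unadjusted p = 0.0413, limma adjusted p = 0.586), and that of Fr2 from Fr3 1.42 ± 0.67 (limma adjusted p = 0.597). Its type II partner Krt8 did not follow it: the brighter Krt8 probe was detected only on Fr3 replicate 1 at −2.31, and the other was detected on Fr2 replicate 1 at −1.02 and Fr3 replicate 1 at −2.01. Krt7, of ducts and glands, was detected on all arrays, at −1.01 and −0.68 on Fr1, −2.24 and 0.00 on Fr2, and −0.47 and 0.35 on Fr3, with its lowest value and a value near its highest both in Fr2. Krt19, of ducts and some basal cells, was detected on no array.

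Krt23 and Krt20, further type I keratins of simple epithelium, were detected on the Fr2 arrays alone. Krt23 stood at −4.06 and −3.79 on Fr1, −1.57 and −1.22 on Fr2, and −4.57 and −3.97 on Fr3. Its Fr2 signal was at least 1.45-fold above the lowest detectable level of Fr1 and at least 1.82-fold above that of Fr3, with measured differences of −2.53 ± 0.55 for Fr1 minus Fr2 (limma adjusted p = 0.324) and 2.88 ± 0.55 for Fr2 minus Fr3 (limma adjusted p = 0.197). Krt20 stood at −2.62 and −3.87 on Fr1, −2.28 and −1.02 on Fr2, and −4.58 and −2.74 on Fr3. Its Fr2 arrays lay above the others, the nearest by little, and the difference of Fr2 from Fr3 was 2.01 ± 0.86 (limma adjusted p = 0.57).

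**Figure D2:**
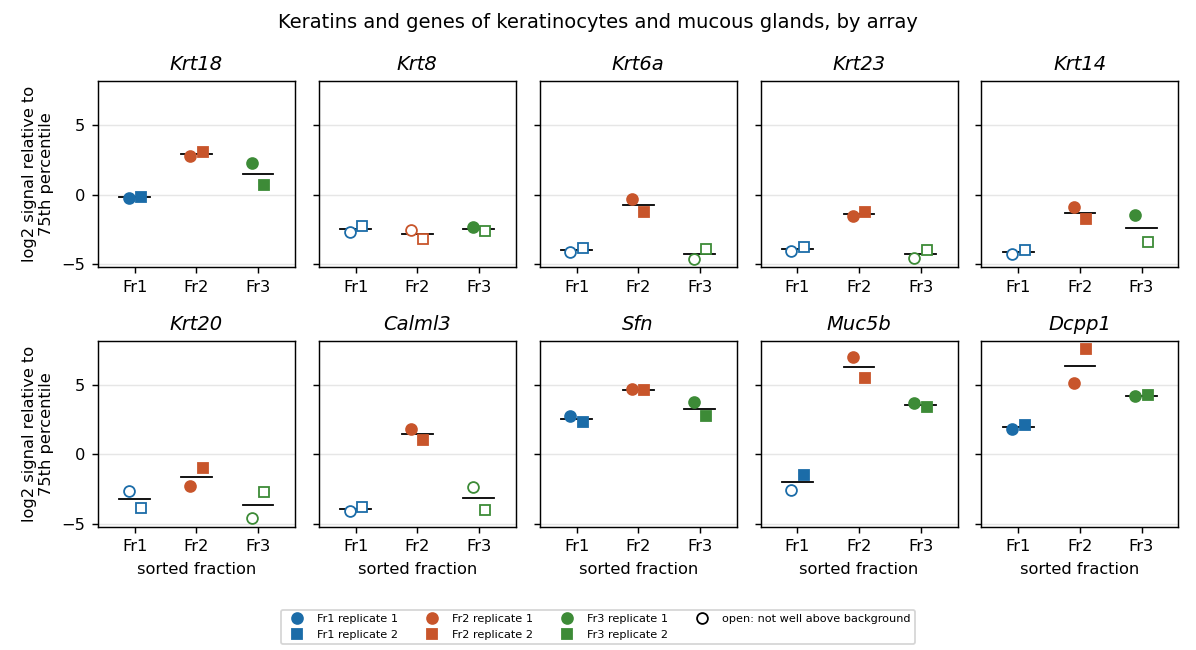
Log2 signal relative to the array's 75th percentile on each array for 6 keratins and 4 genes of keratinocytes and mucous glands. Points are arrays (open: not well above background), and bars are the mean of the 2 arrays. Krt6a, Krt23 and Krt20 have filled points only in Fr2, Krt18 is lowest in Fr1 at −0.22 and −0.18, and Krt8 has 1 filled point.

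The probes of these keratins are shown because their base composition differs, and composition moved with replicate in these data. Among the 8591 genes tested whose probe had more than 30% T, replicate 2 minus replicate 1 had a median of −0.39 in Fr1, −0.04 in Fr2 and −0.28 in Fr3. Among the other 12226 genes it was 0.40, 0.12 and 0.59. Probes rich in T were thus dimmer in replicate 2 and the rest brighter, least in Fr2. The stretches below are 30 of the 60 bases of each probe, 5′ to 3′ on the transcript strand, with every T in capitals.
Krt18 (bases 1 to 30): ggaTggcagagTggTgTccgagacTaaTga
Krt6a (bases 31 to 60): gTaaTTTcTaaaTaaagcaggTTTaTacaT
Krt14 (bases 31 to 60): ccTTgTccTTccTggcaagcaaTaaagcTT
Krt23 (bases 31 to 60): TccTTggagTTTTcagaTTcagaaacTTTT
Over the whole probe T made up 16.7% for Krt18, 43.3% for Krt6a, 35% for Krt14 and 31.7% for Krt23. The last 3 are over 30% T. Their mean was highest in Fr2, as was that of the Krt18 probe, with less T. The part of composition in the differences was not tested. On mm9 the probes lie at chr15:101862341-101862400 (Krt18, plus strand), chr15:101520361-101520420 (Krt6a, minus), chr11:100064495-100064554 (Krt14, minus) and chr11:99339393-99339452 (Krt23, minus). No annotation of mm9 was used here, so their place in exons and UTRs is not given.

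Hair follicle keratins made up 23 of the 52 genes, and some of them were detected on every array. Of the 8 genes of the inner root sheath, Krt72 was detected on all arrays, at −1.66 and −0.73 on Fr1, −1.52 and −1.29 on Fr2, and −0.26 and 0.02 on Fr3. Both Fr3 arrays of Krt72 lay above the other 4, with a difference of Fr2 from Fr3 of −1.28 ± 0.58 (limma adjusted p = 0.583). Krt26 was detected on both Fr3 arrays at −1.51 and −1.61 and on Fr2 replicate 2 at −0.09, and Fr3 was at least 1.29-fold above the lowest detectable level of Fr1. Another Krt26 probe, detected on 1 array, did not share this order. It stood at −4.19 and −3.91 on Fr1, −3.98 and −1.93 on Fr2, and −4.66 and −4.11 on Fr3. There Fr1 and Fr3 overlapped. Krt28 was detected on 3 arrays and Krt74 on 1, and Krt25, Krt27, Krt71 and Krt73 on none. Of the 15 hair shaft keratins, Krt85, Krt81, Krt83 and Krt40 were detected on all 6 arrays, Krt31 on 5, Krt86 on 4, and Krt33a, Krt39 and Krt84 on some arrays without being tested. Krt86 stood at −0.98 and −3.97 on Fr1, −0.25 and −1.16 on Fr2, and −2.34 and −2.51 on Fr3, not detected on replicate 2 of Fr1 and of Fr3, and its Fr1 arrays lay further from each other than any of its fraction means. Krt31 stood at −1.22 and −0.16 on Fr1, −1.78 and −1.13 on Fr2, and −2.83, not detected, and −1.46 on Fr3, with a difference of Fr1 from Fr3 of 1.46 ± 0.72 (limma adjusted p = 0.622).

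The Krt81 and Krt83 probes, which were detected on all 6 arrays, carry nearly the same sequence, and they are printed whole for that reason. Capitals mark bases that differ from the Krt81 probe where the probes overlap.
Krt81: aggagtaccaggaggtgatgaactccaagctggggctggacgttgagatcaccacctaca
Krt83: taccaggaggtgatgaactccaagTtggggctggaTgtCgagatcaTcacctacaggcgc
The Krt81 probe (mm9, chr15:101290583-101290642, minus strand) shares 51 of 55 overlapping bases with that of Krt83 (chr15:101263556-101263615, minus strand), which is 92.7%, so RNA of either gene could be read on both probes and their values are not independent. Krt81 stood at 0.25 and −0.19 on Fr1, −0.05 and −0.91 on Fr2, and −0.29 and 0.99 on Fr3. Krt83 stood at 0.55 and 0.07 on Fr1, −0.13 and −1.82 on Fr2, and −0.28 and 0.25 on Fr3. Despite the shared sequence, Fr3 had the highest mean on the Krt81 probe and Fr1 on the Krt83 probe, with no difference larger than 1.29 ± 0.72 (Krt83, Fr1 minus Fr2; limma adjusted p = 0.604). Krt85, whose probe the files list as unmapped and whose values are not independent of those of Krt81 and Krt83 either, stood at 1.63 and 2.14 on Fr1, 2.58 and 1.61 on Fr2, and 2.71 and 3.01 on Fr3. Its fractions did not separate Fr1 from Fr2, and both Fr3 arrays lay above the other 4.

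The brightest keratin signal of all came from Krt222, a keratin-like gene. It stood at 10.96 and 10.96 on Fr1, 10.26 and 10.36 on Fr2, and 10.36 and 11.09 on Fr3, and 77 of 56601 probes were brighter. The probe (mm9, chr11:99095480-99095539, minus strand) holds a run of 22 alternating C and A bases, in capitals below.
Krt222 (bases 18 to 47): ttgtACACACACACACACACACACACccgg
A second Krt222 probe, at chr11:99100057-99100116 on the same strand, holds no such run and was at −4.18 and −3.96 on Fr1, −3.77 and −2.38 on Fr2, and −3.31 and −1.49 on Fr3. The letters CACACACACA or ACACACACAC, which overlap in a longer run, are in 104 probes of the array (0.184%), and those probes had a median of 7.07, against −2.42 for all probes. Of them 93.3% were detected on all 6 arrays, against 29.7% of all probes. The complementary run, GTGTGTGTGT or TGTGTGTGTG, is in 167 probes (0.295%), with a median of 9.51. No other keratin probe holds either run. The part of the repeat in the Krt222 value was not tested; its 2 probes disagree, and the bright value is not read here as a level of Krt222 RNA. It also sets the summed keratin signal: log2 of the sum over the 52 genes was 10.98 and 10.99 on Fr1, 10.31 and 10.42 on Fr2, and 10.41 and 11.13 on Fr3, and without Krt222 4.98 and 5.60, 5.41 and 5.81, and 5.39 and 5.90. In the latter sum the fractions overlapped.

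**Figure D3:**
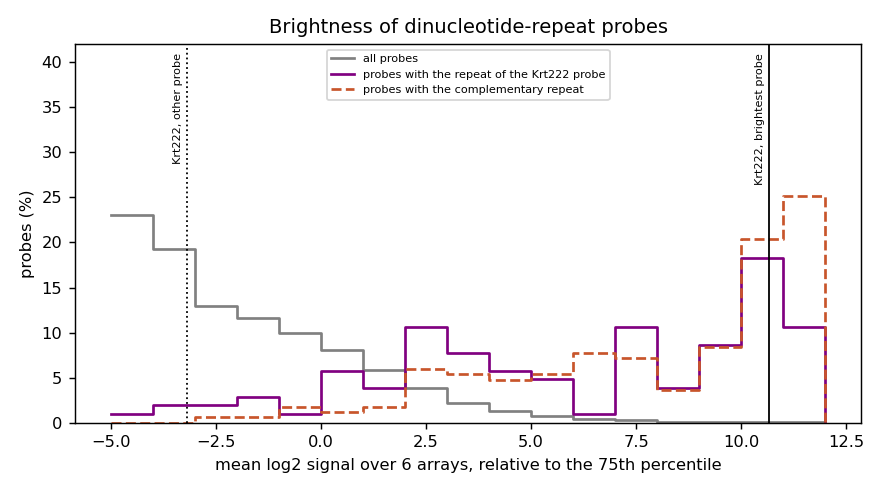
Percent of probes by mean log2 signal over the 6 arrays, for all 56601 probes, the 104 probes with the CA repeat and the 167 with the complementary GT repeat. Vertical lines mark the 2 Krt222 probes, the brightest of which lies in the range of the repeat probes and the other below the median of all probes.

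Probes of one gene disagreed elsewhere in the family. For Krt79 the second probe, at chr15:101764157-101764216 and annotated on the opposite strand, was detected on no array, and its values lay between −4.61 and −3.75. For Krt16 the second probe was detected on all arrays between −1.36 and −0.36. Krt40 and Krt75 each had a second probe that was detected nowhere. The brighter Krt40 probe was at −1.63 and −1.50 on Fr1, −2.29 and −1.22 on Fr2, and −1.75 and −0.26 on Fr3. Krt42, in none of the groups above, was detected on all 6 arrays. It was at −0.77 and −0.33 on Fr1, −0.87 and −1.22 on Fr2, and −0.38 and 0.40 on Fr3. Both Fr2 arrays of Krt42 lay below the other 4 on this probe (Fr2 minus Fr3 −1.05 ± 0.58, limma adjusted p = 0.607). A second Krt42 probe, detected on 5 arrays, did not share this order. It stood at −0.80 and −0.86 on Fr1, −1.50 and −2.83 on Fr2, and −2.17 and −0.77 on Fr3. There Fr2 and Fr3 overlapped.

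**Figure D4:**
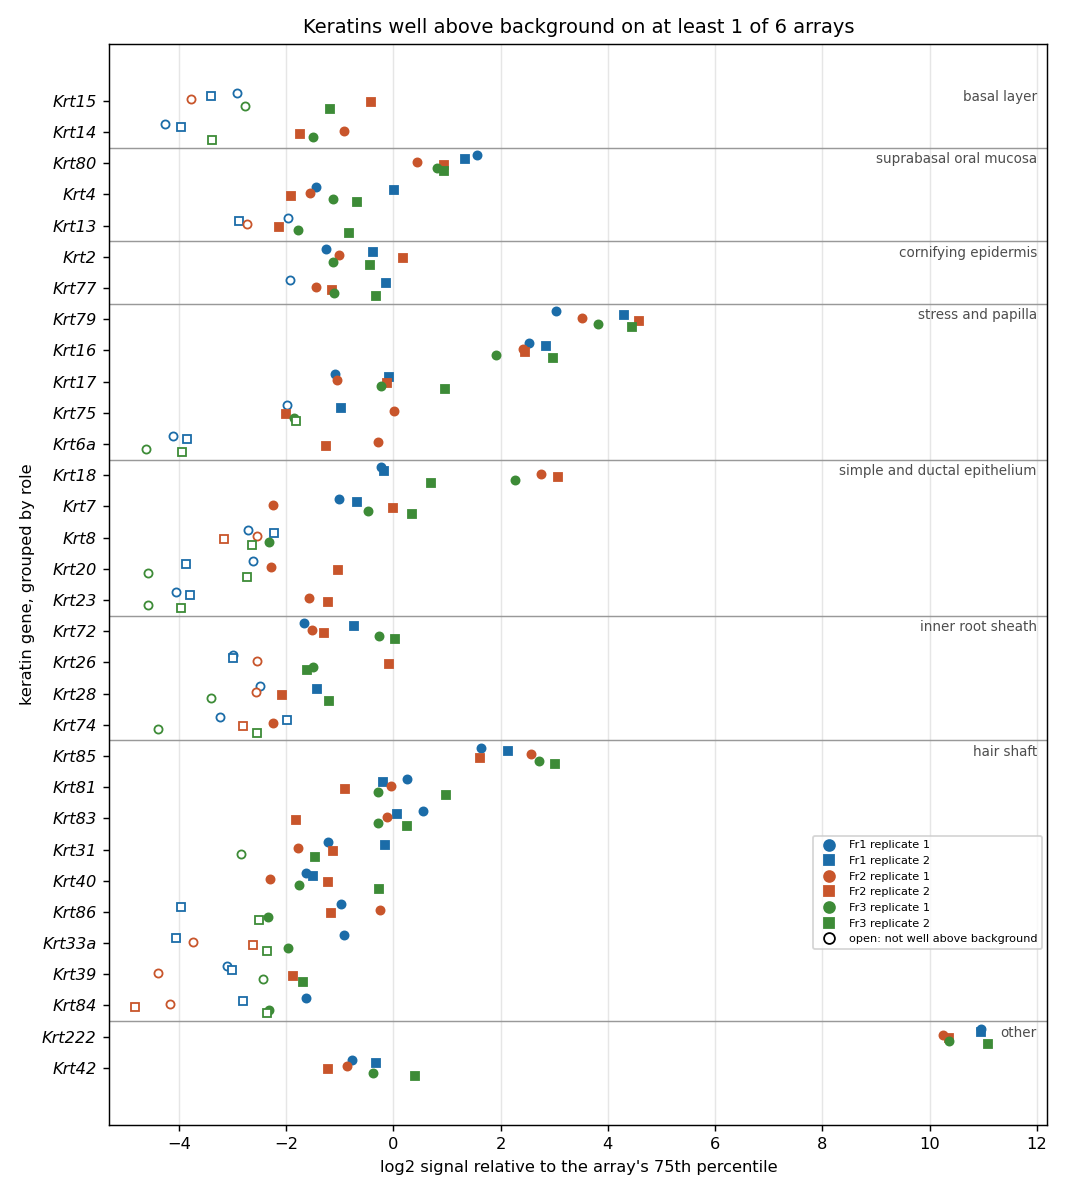
Log2 signal relative to the array's 75th percentile of the 32 keratins detected on at least 1 array, by role. Circles are replicate 1, squares replicate 2, colours the fractions, and open symbols arrays where the probe was not well above background. Krt222 lies between 10.26 and 11.09, apart from the rest, and most other keratins have arrays of the 3 fractions mixed.

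No keratin passed the adjusted threshold in any comparison. For Fr1 against Fr3, 0 of 25 keratins had a limma adjusted p under 0.05, against 0.0048% of the 20817 genes tested, and the smallest was 0.586. Without Fr3 replicate 1 the counts of all genes were 1395 in Fr1 against Fr3 and 933 in Fr2 against Fr3, but Fr3 is then 1 array that is assumed to vary like the other fractions. At an unadjusted p under 0.05, 1 keratin, Krt18, was higher in Fr3 (4%) and 0 in Fr1, against 5.36% and 2.79% of all genes, 8.15% in all. The Fr1 and Fr3 arrays did not overlap for 2 keratins higher in Fr1 and 7 higher in Fr3, which is 8% and 28%, against 13.7% and 21.9% of all genes. The keratins' median difference of Fr1 from Fr3 was −0.32, against −0.05 for all genes, and its sign was not stable: it was 0.013 with normexp background correction, −0.71 without Fr3 replicate 1 and 0.19 without Fr3 replicate 2.

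For Fr1 against Fr2, 0 of 25 keratins passed at an adjusted p under 0.05, as did 0% of all genes, although 9.78% of all genes had an unadjusted p under 0.05. The 4 keratins at an unadjusted p under 0.05, Krt18, Krt6a, Krt23 and Krt14, were all higher in Fr2, which is 16% of the 25, against 6.42% of all genes, and 0 were higher in Fr1, against 3.35%. Of these 4, Krt6a, Krt14 and Krt23 are among the genes kept through Fr2 alone. The arrays did not overlap for 6 keratins in each direction, 24%, against 22.7% of all genes higher in Fr1 and 22.2% higher in Fr2. The median difference of the keratins was 0.0085, against 0.04 for all genes, and ran from −0.30 without Fr2 replicate 1 to 0.26 without Fr2 replicate 2.

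For Fr2 against Fr3, 0 of 25 keratins passed the adjusted threshold, against 0.0048% of all genes. Krt6a and Krt23 were higher in Fr2 at an unadjusted p under 0.05, which is 8% against 4.84%, and 0 were higher in Fr3, against 4.06% and 8.91% in both directions together. The arrays did not overlap for 5 keratins higher in Fr2 and 7 higher in Fr3, which is 20% and 28%, against 19.4% and 22.6%. The median was −0.18, against −0.08 for all genes, and −0.76 among keratins detected on all 6 arrays; it ran from −0.54 without Fr3 replicate 1 to 0.01 without Fr2 replicate 1. The Fr1, Fr2 and Fr3 arrays are shared between these comparisons, so the 3 are not independent of each other. The counts of keratins whose arrays did not overlap lay near the background of all genes in each comparison.

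Other genes of epithelium did not share a direction. Of 15 desmosome genes 3 were detected on all 6 arrays and 6 on none, among them the desmogleins Dsg2, Dsg3, Dsg1a and Dsg1b. Perp, a desmosome protein of stratified epithelium, was not detected on Fr1 at −1.95 and −3.92, and was at −0.02 and −0.25 on Fr2 and −1.81 and −1.25 on Fr3, so the order of its fractions was that of Krt18 (Fr1 minus Fr2 −2.80 ± 0.76; limma adjusted p = 0.371). Dsp, which anchors keratin filaments to desmosomes, was detected on both Fr2 arrays at −1.12 and −0.41 and otherwise only on Fr1 replicate 1 at −1.35. Because Dsp was kept through Fr2 alone, the filter set its direction in part. Other members were higher in Fr1. Pkp2, a plakophilin that links desmosomal cadherins to DSP, was at −1.35 and −0.90 on Fr1, −1.97 and −1.67 on Fr2, and was not detected on Fr3 at −2.58 and −3.45 (Fr1 minus Fr3 1.89 ± 0.58; limma adjusted p = 0.441). Jup, the plakoglobin of desmosomes and adherens junctions, was at 1.83 and 1.16 on Fr1, 1.18 and 0.02 on Fr2, and 0.61 and −0.20 on Fr3. Dsc3, a desmosomal cadherin, had means of 1.01 ± 0.68 (SD) in Fr1, 0.25 ± 0.57 in Fr2 and −0.30 ± 1.58 in Fr3. The median difference of the 8 desmosome genes tested was 0.68 for Fr1 minus Fr2 and 0.83 for Fr1 minus Fr3. Of 10 genes of hemidesmosomes and basement membrane adhesion, 7 were detected on all arrays and each on at least 1. Plec, the linker of keratins to hemidesmosomes that many cell types make, was at 2.57 and 2.49 on Fr1, 2.15 and 2.16 on Fr2, and 2.25 and 2.69 on Fr3.

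The list of epithelial junction and identity genes held 29 genes, of which 21 were tested, 13 were detected on all arrays and 5 on none. None passed the adjusted threshold, and their median differences were 0.14 (Fr1 minus Fr2), 0.39 (Fr1 minus Fr3) and −0.11 (Fr2 minus Fr3), against 0.04, −0.05 and −0.08 for all genes. Cldn1, a tight junction protein, was at 1.37 and 0.52 on Fr1, was not detected on Fr2 at −2.56 and −2.73, and on Fr3 was detected on replicate 1 at −0.26 and not on replicate 2 at −2.89. Fr1 was at least 11.7-fold above the lowest detectable level of Fr2 (limma adjusted p = 0.35), the reverse of the order of Krt6a and Krt23; it was kept through Fr1 alone, so the filter set this direction in part. Grhl1, a transcription factor of epithelial differentiation, was at 0.88 and 1.49 on Fr1, 0.89 and 2.03 on Fr2, and −3.64, not detected, and −1.12 on Fr3. Ovol2, Trp63 and Grhl2, transcription factors of epithelial cells, were the brightest of the list, with means of 8.72, 7.73 and 4.88 over the 6 arrays, but another probe of each had a mean of −1.67, −0.34 and −2.57, so the bright values are not read here as levels of these genes.

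Of 26 genes of the cornified envelope, 12 were detected on no array and 3 on all, among the latter Tgm3, between 2.74 and 3.16. Tgm1, which crosslinks the envelope, was detected on the Fr3 arrays alone, at −1.70 and −1.33. It was kept through Fr3 alone, so the filter set this direction in part. Of 21 other products of squamous keratinocytes, 7 were detected on all arrays and 6 on none. Calml3, a calmodulin-like protein of keratinocytes, was detected on the Fr2 arrays alone, at 1.81 and 1.02, against −4.09 and −3.81 on Fr1 and −2.36 and −4.00 on Fr3. Its Fr2 signal was at least 10.2-fold above the lowest detectable level of Fr1 and at least 11.9-fold above that of Fr3 (limma adjusted p = 0.196 and 0.127); like Krt6a, it was kept through Fr2 alone, so the filter set its direction in part, as it did for Wfdc12. Wfdc12 was likewise detected on the Fr2 arrays alone, at −0.06 and −0.16. Sfn, the 14-3-3 protein of stratified epithelium, was at 2.74 and 2.30 on Fr1, 4.65 and 4.60 on Fr2, and 3.74 and 2.72 on Fr3, with both Fr2 arrays above the other 4. Other genes of the list had another order. Ly6g6c, a surface protein of the same family as Ly6d, had means of 0.50 ± 0.57 (SD) in Fr1, 1.29 ± 0.27 in Fr2 and 2.31 ± 0.42 in Fr3, highest in Fr3, and Gjb6, Ly6d and Lgals7 had their lowest arrays in Fr2. The median difference of Fr1 from Fr2 over the 10 genes tested was 0.0015, and the arrays did not overlap for 3 higher in Fr1 and 4 higher in Fr2. The summed signal of the 21 genes was 4.68 and 4.29 (log2) on Fr1, 5.43 and 5.29 on Fr2, and 4.93 and 4.47 on Fr3.

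Signal of some salivary and mucous gland genes had the fraction order of Krt18. Muc5b, the main gel-forming mucin of saliva, was at −2.57, not detected, and −1.47 on Fr1, 7.00 and 5.48 on Fr2, and 3.65 and 3.38 on Fr3. Dcpp1, a secreted protein of the sublingual gland, was at 1.79 and 2.11 on Fr1, 5.10 and 7.56 on Fr2, and 4.15 and 4.23 on Fr3. In both, as in Krt18, no fraction overlapped another, and the order ran from Fr1 to Fr3 to Fr2. Of the 23 gland genes on the array, 13 were detected on all arrays and 1 on none, and log2 of their summed signal was 5.30 and 5.48 on Fr1, 8.79 and 9.15 on Fr2, and 7.47 and 7.63 on Fr3. The sum includes Lyz1, at 4.01 and 3.64 on Fr1, 6.71 and 5.94 on Fr2, and 6.54 and 6.94 on Fr3. Lyz2, of the phagocyte list, was at 3.29 and 3.17, 6.39 and 5.87, and 6.72 and 6.84. The part of phagocyte RNA in the gland sum was not tested. Lyz1 is also among the genes counted next as higher in Fr2 and in Fr3 than in Fr1. At an unadjusted p under 0.05, 10 of the 20 tested were higher in Fr2 than in Fr1, against 6.42% of all genes, and 6 were higher in Fr3 than in Fr1, against 5.36%. The 10 include Tff2 and Ltf, which were kept through Fr2 alone, so the filter set their direction in part. Between Fr2 and Fr3, 8 were higher in Fr2, Tff2 and Ltf among them, against 4.84%, and 1 in Fr3, against 4.06%. Dcpp1, Dcpp2 and Dcpp3, alike in name, are each counted among the 10, the 6 and the 8. Whether their probes share signal was not tested. The Fr1 and Fr2 arrays did not overlap for 12 higher in Fr2, against 22.2% of all genes, and 2 higher in Fr1, against 22.7%. For Fr2 and Fr3 these were 9 higher in Fr2, against 19.4%, and 3 higher in Fr3, against 22.6%. For Fr1 and Fr3 these were 11 higher in Fr3, against 21.9%, and 3 higher in Fr1, against 13.7%. The gland genes thus did not all share a direction. None passed the adjusted threshold; their median differences were −2.23 (Fr1 minus Fr2), −1.14 (Fr1 minus Fr3) and 1.21 (Fr2 minus Fr3), against 0.04, −0.05 and −0.08 for all genes. The part of gland RNA in the Krt18 values was not tested. Krt14, Krt6a and Krt23, all kept through Fr2 alone, were not detected on either Fr1 array. Krt5 and Krt19, which glands and their ducts also make, were not detected on any array.

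Langerhans cells, which live within the keratinocyte layer, were followed through 7 genes, of which 5 were detected on all arrays. Cd207, which encodes langerin, was at 0.18 and 0.79 on Fr1, −2.11 and −2.05 on Fr2, and −3.86, not detected, and −1.80 on Fr3 (Fr1 minus Fr3 3.32 ± 0.78; limma adjusted p = 0.301). The Fr1 arrays, with the highest Cd207 values, had the lowest Krt18 values and no detection of Krt14, Krt6a or Krt23. These last 3 were kept through Fr2 alone, so the filter set their absence from Fr1 in part. Krt80 went the other way on its brightest probe, with 1.57 and 1.34 on Fr1 above both other fractions. On its other detected probe Fr1 overlapped both other fractions. Whether Cd207 and keratin signal are related was not tested.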

How the data were processed

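Each of the 6 arrays is an Agilent mouse design with 62976 spots and 60-base probes, read in 1 channel (Cy3). Per the labels' protocols, the RNA of each sort went through whole-transcriptome amplification before labelling. Deposited intensity values come from Agilent Feature Extraction 11.5.1.1, which subtracted background and trends; the file headers also give the build mm9. The authors' deposited table of log2 values correlated with the scanner values at r of at least 0.9999 (across probes), had medians between −2.44 and −2.25 and a 75th percentile of 0, and served as an alternative. It lay within 0.05 of the scanner values for 91.6% and 90.7% of probes on Fr2, and for nearly all on the others.

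From the files, the spots of a probe were averaged (56601 probes; 4 left out for an outlier flag), log2 of the processed signal was taken minus each array's 75th percentile, and a probe was kept where both arrays of some fraction had it well above background. This left 27867 probes and 20817 genes, each read from its brightest probe. Names were updated through RefSeq tables by accession (32987 probes), symbol (10227) or synonym (519), and 12868 kept the files' names. All 3 fractions were fitted together with limma 3.58.1 in R 4.3.3 (Benjamini-Hochberg adjustment over all genes tested; two-sided), and files were read with Python 3.11.15. Gm2042, a predicted gene, was the only gene called, at 3.51 in Fr3 (adjusted p = 0.0438 against Fr1, 0.0256 against Fr2). "At least" folds compare the brighter fraction's mean with the lowest detectable level of the dim arrays. Between replicates Pearson's r across genes was 0.883 (Fr1), 0.898 (Fr2) and 0.796 (Fr3), a description in which genes are not independent replicates. No spot was saturated, and 44.6% to 52.4% of spots were well above background; 2 arrays per fraction limit the precision.

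Every keratin detected on an array is named, with all or some of its values where it was tested. Genes of the other lists were open to naming where they were among the 3 tested genes of highest mean or the 3 of smallest p of their list, and the text gives some of these; Gjb6, Ly6d, Lgals7 and the genes named as detected on no array were chosen after their values were seen. Some genes and a probe sequence are not reported here. The members and lists were chosen with earlier results of these data known. Lists of fibroblast (16 genes, 4 detected on all arrays), endothelium (14, 1), skeletal muscle (16, 6) and melanocyte and nerve (10, 2) genes were also read. Alternatives were normexp background correction with an offset of 50, quantile normalization, the authors' table, other filters on dim probes, the mean of a gene's probes, leaving out probes of over 30% T, fitting only the fractions compared, a replicate block, leaving out each array and, chosen after seeing the data, leaving out probes with the repeats.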

Additional observations from a re-analysis of the deposited data

How the results depend on the processing

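No keratin passed a limma adjusted p of 0.05 under any alternative run, and the smallest was 0.0642 (Krt6a, Fr2 minus Fr3, 3.18, without Fr3 replicate 1). Leaving out an array leaves 1 in its fraction, which is then assumed to vary like the others. Of 1155 keratin differences under the alternatives, 50 turned in sign, over 31 of 75 pairs of keratin and comparison; the cause was not tested. Krt14, Krt18 and Krt23 kept their sign in every comparison and alternative in which they were tested, and Krt6a did in its 2 comparisons with Fr2. Leaving out each array in turn gave ranges across 0 for the following. In Fr1 minus Fr3 these were Krt16 −0.30 to 0.78, Krt2 −0.47 to 0.40, Krt20 −0.51 to 1.33, Krt222 −0.13 to 0.60, Krt4 −0.54 to 0.91, Krt40 −1.31 to 0.19, Krt6a −0.035 to 0.63, Krt75 −0.15 to 0.86, Krt77 −1.22 to 0.57, Krt79 −1.11 to 0.17, Krt81 −0.96 to 0.31 and Krt86 −1.55 to 1.44. In Fr1 minus Fr2 these were Krt13 −0.45 to 0.46, Krt17 −0.50 to 0.51, Krt2 −1.003 to 0.20, Krt40 −0.34 to 0.73, Krt7 −0.85 to 1.40, Krt72 −0.25 to 0.68, Krt75 −1.49 to 0.52, Krt77 −0.63 to 1.16, Krt79 −1.03 to 0.24 and Krt85 −0.69 to 0.27. In Fr2 minus Fr3 these were Krt16 −0.54 to 0.53, Krt2 −0.23 to 0.97, Krt26 −0.99 to 1.47, Krt7 −2.18 to 0.061, Krt75 −0.16 to 1.84, Krt79 −0.61 to 0.46 and Krt80 −0.43 to 0.067. Normexp turned Krt2 to 0.032, Krt77 to 0.013 and Krt86 to 0.12 in Fr1 minus Fr3, and Krt16 to 0.022 in Fr2 minus Fr3. The mean of all probes turned Krt16 to −0.12 in both comparisons with Fr1 and Krt42 to 0.043 in Fr1 minus Fr3. Quantile normalization turned Krt13 to −0.073 in Fr1 minus Fr2. The count of all genes called in Fr1 against Fr3, 1 as reported, was 0 with normexp, with no filter, with the arrays of 2 fractions only and with the replicate block, 12 without probes over 30% T, and 0 to 1395 without 1 array. In Fr1 against Fr2, 0 as reported, it was 7 without those probes, 3 with the arrays of 2 fractions only, and 0 to 3 without 1 array. In Fr2 against Fr3, 1 as reported, it was 7 with normexp, 14 with probes detected on all arrays, 56 without probes over 30% T, 0 with the arrays of 2 fractions only, 0 with the replicate block, and 0 to 933 without 1 array. Both high counts came without Fr3 replicate 1. Without 1 array the keratin median ran from −0.71 to 0.19 (Fr1 minus Fr3), −0.30 to 0.26 (Fr1 minus Fr2) and −0.54 to 0.01 (Fr2 minus Fr3), and that of Fr1 minus Fr3 was 0.013 with normexp and −0.043 with no filter. The keratin median of Fr2 minus Fr3 was −0.76 among probes detected on all arrays. Detection by the positive-and-significant flag counted 33, 41 and 40 keratins in Fr1, Fr2 and Fr3. Same-numbered arrays shared deviations with r of 0.12 (Fr1 and Fr2), 0.43 (Fr1 and Fr3) and 0.05 (Fr2 and Fr3), so the numbers were not taken as pairs, and the replicate block turned no keratin. Signal near background limits most keratins, and 2 arrays per fraction limit all of them.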
